A study of Mus musculus with 2 samples.

Results

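The insulin-like growth factor (IGF) system was examined in niche astrocytes, the astrocytes that surround the neural precursors of the dentate gyrus (DG). Its 10 genes were taken by symbol from the expression tables, out of 16302 genes listed in at least one table. They were the ligand genes Igf1 and Igf2, the receptor genes Igf1r and Igf2r, and the binding protein genes Igfbp2, Igfbp3, Igfbp4, Igfbp5, Igfbp6 and Igfbp7. All 10 were listed in both tables and reached 1 FPKM (fragments per kilobase of transcript, scaled to the library size), so that none was lost to the minimum level. The WT group was wild type C57BL/6 mice. The β-arr1 KO group carried a germline knockout of the β-arrestin 1 gene Arrb1, in every cell of the animal, on the same background. Astrocytes of both genotypes were grown from adult DG in a medium that contained serum and insulin, and both cultures had been shaken to remove proliferating cells, oligodendrocyte progenitors and neurons. The age and sex of the donor mice of these cultures are not given in the sources used here. The cDNA was pooled, and 1 library was sequenced per genotype. There was no replicate, so the error between cultures is unknown and the genotypes were compared without a test.

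IGF1 and IGF2 are secreted peptides that promote growth and survival. Both activate the tyrosine kinase receptor IGF1R, whereas IGF2R carries IGF2 to lysosomes and removes it. IGF binding proteins (IGFBPs) hold the ligands outside the cell. They can keep a ligand away from its receptor or release it when proteases cut them. In the DG, IGF1 is known to act on neural precursors, and astrocytes are among the brain cells that secrete IGFBPs.

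The expression change of each gene was its FPKM ratio, β-arr1 KO vs. WT, read against the limits of 3/2 and 2/3 used in the study. Of the 10 genes, Igfbp3 was above 3/2 (ratio 1.78), Igfbp4 (0.326) and Igfbp6 (0.433) were below 2/3, and 7 lay between the limits. All 3 genes past the limits encode binding proteins. Among 12171 genes with a ratio and a minimum of 1 FPKM in either library, 14.6% were past the limits, 7.9% above 3/2 and 6.74% below 2/3. At 5 FPKM or more, 927 of 9145 genes (10.1%) were past them. The median log2 ratio was -0.19 over the 10 genes and 0.02 over all genes analysed. A 95% interval (exact Clopper-Pearson) was computed for each ratio from the fragments estimated to lie behind the values. It covers counting error alone and is narrower where more fragments were counted. It left out a ratio of 1 for 9 of the 10 genes, all except Igf1r. With the shortest coding transcript assumed in place of the longest, it did so for 6. Of the 11841 genes analysed for which it could be computed, it left out 1 for 40.9%. That share was not matched for level, so it cannot be set directly beside the 9 genes.

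**Figure D1:**
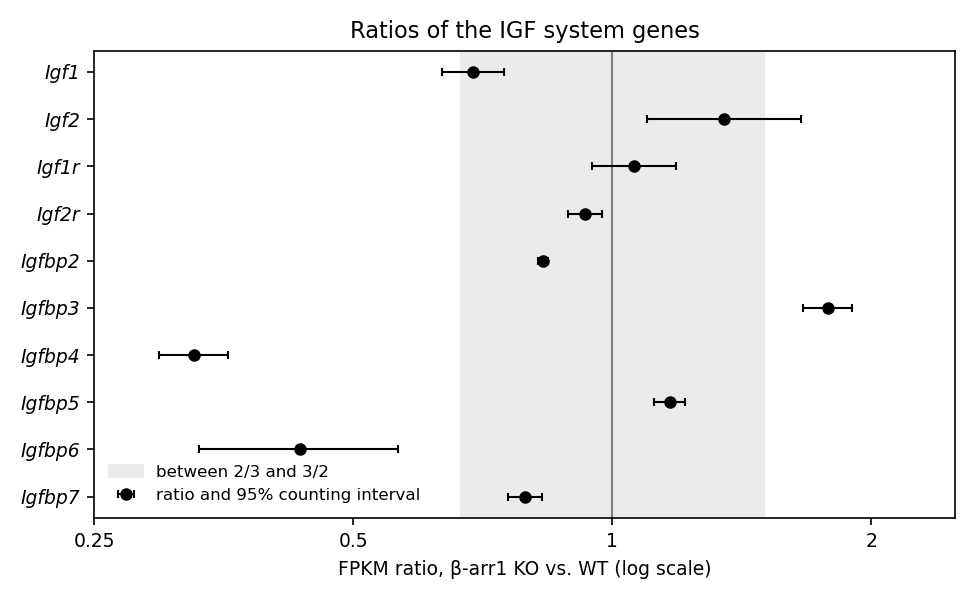
FPKM ratio, β-arr1 KO vs. WT, of the 10 IGF system genes on a log axis. Points are the ratios and bars their 95% counting intervals, which hold no error between cultures. Igfbp3 at 1.78 lies right of the limit 3/2, and Igfbp4 at 0.326 and Igfbp6 at 0.433 lie left of the limit 2/3.

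A check of the labels and of the cells came before the single genes. Arrb1 was at 7.62 FPKM in WT against 2.72 in β-arr1 KO, with a ratio of 0.358 (counting interval, 0.301 to 0.424), so the transcript was lower in the KO library but still listed. The FPKM totals were 374406 (WT) and 373279 (KO), and an estimated 9.54 M and 9.81 M fragments lay behind them. Of 4 Y-linked genes, 0 were listed in WT and 4 in KO, so the sex of the donors was not the same for both libraries and cannot be told apart from genotype. The astrocyte marker Gfap was at 189 and 192 FPKM, and all 10 astrocyte markers were listed in both. The astrocyte markers summed to 396 FPKM in WT against 420 in KO. Markers of other cells were also abundant, with summed levels of 1734 and 1305 FPKM for microglia. The sums were 5464 and 5160 FPKM for pericytes and smooth muscle, and 615 and 323 FPKM for fibroblast and leptomeningeal cells. The values below are thus those of mixed cultures.

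The promoters of the 3 genes past the limits are shown as sequence context for their values. Each is the stretch of 250 bases before the gene's start in the RefSeq table of GRCm38.p6, read 5′ to 3′ on the gene's strand. Capitals mark TATAAA (the TATA box) and CCAAT (the CCAAT box) on either strand. GGGCGG (the GC box) and AGGTCA (a nuclear receptor motif) were searched too and found in none of the 3. The Igfbp3 promoter was taken from chr11:7213924-7214173 (minus strand), that of Igfbp4 from chr11:99040994-99041243 (plus strand), and that of Igfbp6 from chr15:102143936-102144185 (plus strand).
Igfbp3: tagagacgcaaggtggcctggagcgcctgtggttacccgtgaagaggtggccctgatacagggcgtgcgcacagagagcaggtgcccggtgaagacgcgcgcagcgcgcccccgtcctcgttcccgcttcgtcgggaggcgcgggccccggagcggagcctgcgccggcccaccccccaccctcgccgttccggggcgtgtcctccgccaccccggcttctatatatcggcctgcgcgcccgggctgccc
Igfbp4: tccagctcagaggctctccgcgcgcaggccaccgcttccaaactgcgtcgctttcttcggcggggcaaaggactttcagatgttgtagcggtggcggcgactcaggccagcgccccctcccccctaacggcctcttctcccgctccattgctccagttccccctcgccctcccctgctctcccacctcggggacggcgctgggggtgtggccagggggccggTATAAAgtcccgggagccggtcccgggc
Igfbp6: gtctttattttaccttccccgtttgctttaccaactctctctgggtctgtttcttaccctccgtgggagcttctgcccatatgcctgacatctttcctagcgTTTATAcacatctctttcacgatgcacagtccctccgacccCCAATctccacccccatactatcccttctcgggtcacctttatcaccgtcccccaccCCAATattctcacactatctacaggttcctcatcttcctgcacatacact
Igfbp4 held TATAAA from 28 to 23 bases before its start. Igfbp6 held it on the opposite strand from 148 to 143 bases before the start, and CCAAT from 107 to 103 and from 50 to 46 bases before it. Igfbp3 held none of the 4 motifs in these letters, and variants of the letters were not searched. TATAAA was not found in the promoters of the other genes of the system, but the other motifs were. CCAAT was found for Igf1 and Igf2, and AGGTCA for Igf1, Igf1r, Igf2 and Igf2r. GGGCGG was found for Igf1r, Igf2, Igf2r, Igfbp2 and Igfbp7. All of these genes lay between the limits. Over 32851 promoters of the same length, 12.4% held TATAAA, 33.8% CCAAT, 32.7% GGGCGG and 14% AGGTCA, so that each is common. The GC content was 73.2% for Igfbp3, 69.2% for Igfbp4 and 49.6% for Igfbp6, beside a median of 52.4%. The bases that follow this start of Igfbp6 were not found in its transcript in the GENCODE annotation of NCBIM37, and which start was used in these cells was not measured. The motifs are matches of letters only.

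Igf1 was the higher of the ligand genes. Igf1 (NCBI gene 16000, chr10:87321801-87399792 of mm9, plus strand) was at 20.9 FPKM in WT against 14.4 in β-arr1 KO. The resulting ratio of 0.688 (interval, 0.633 to 0.747) lay just inside the lower limit, and it rested on an estimated 1383 and 979 fragments. Igf2 (NCBI gene 16002, chr7:149836673-149846940, minus strand) lay the other way, at 3.74 FPKM in WT against 5.04 in KO. The resulting ratio was 1.35, with a wider interval of 1.10 to 1.66 from 163 and 225 fragments. The level of Igf1 was 5.57 times that of Igf2 in WT and 2.85 times in KO. The ligand mRNA together was 24.6 FPKM in WT against 19.4 in KO. Both genes give rise to several transcripts, 9 each in GENCODE, and the intervals assume the longest. If the shortest coding transcript were the one expressed, the intervals would run from 0.465 to 1.01 for Igf1 and from 0.463 to 4.17 for Igf2, and would include 1.

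The receptor genes were nearer to a ratio of 1 than both ligands and all 6 binding proteins. Igf1r, the signalling receptor (NCBI gene 16001, chromosome 7, plus strand), was at 15.8 FPKM in WT against 16.7 in β-arr1 KO, which gave a ratio of 1.06 with 1 inside its interval of 0.947 to 1.18. Its row ended at 75378553 in both tables but started at 75096531 (WT) or 75096762 (KO). It was the only one of the 10 genes whose bounds differed. Igf2r, the clearance receptor, which also carries lysosomal enzymes (NCBI gene 16004, chr17:12875272-12962572, minus strand), was at 47.1 and 43.8 FPKM, with a ratio of 0.930 (counting interval, 0.889 to 0.973). With the shortest coding transcript the interval of Igf2r would run from 0.598 to 1.45 and include 1. Igf2r exceeded Igf1r 2.98-fold in WT and 2.62-fold in KO. The row of Igf2r shared 28396 bases with that of Airn, the antisense RNA that is transcribed from the other parental allele of this imprinted locus. Airn was at 2.42 FPKM in WT against 1.11 in KO, and whether the libraries kept strand is not given in the sources used here, so reads of the pair cannot be told apart. The sum of both rows had a ratio of 0.907.

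**Figure D2:**
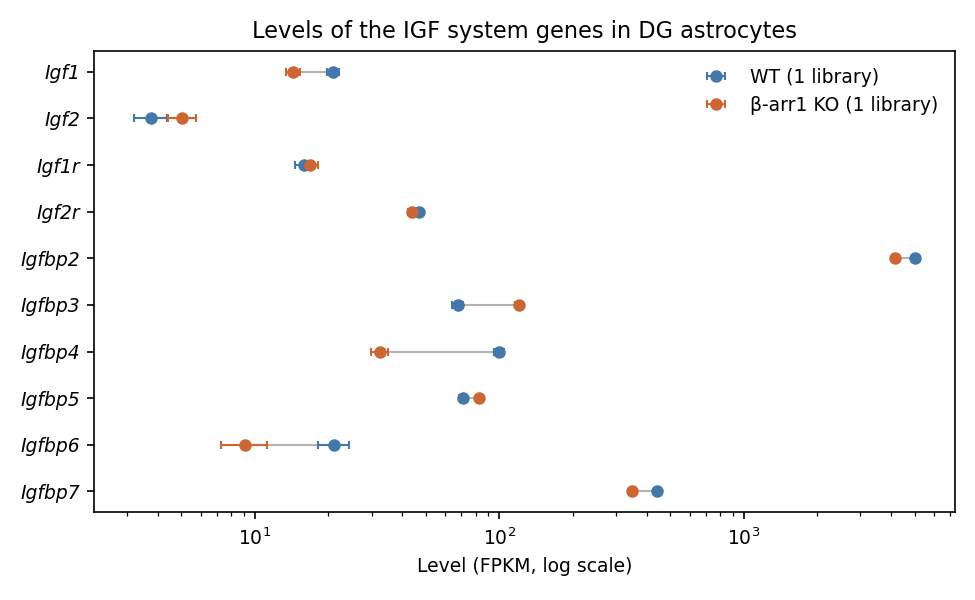
FPKM of the 10 IGF system genes in the WT and the β-arr1 KO library, on a log axis. Points are single libraries with the 95% counting intervals of the levels. Igfbp2 stands highest at 5002 and 4152 FPKM and Igf2 lowest at 3.74 and 5.04 FPKM, and the libraries are farthest apart for Igfbp4.

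Igfbp2 had the highest value of any gene in both tables. This binding protein, which carries an integrin recognition motif beside its IGF site (NCBI gene 16008, chr1:72871054-72899045, plus strand), was at 5002 FPKM in WT against 4152 in β-arr1 KO. It alone made up 1.34% and 1.11% of the summed FPKM of the libraries. The ratio of 0.830 lay between the limits, and the interval was narrow (0.820 to 0.841), since an estimated 54252 and 46316 fragments lay behind it. The neighbouring gene Igfbp5 (NCBI gene 16011, chr1:72904639-72921439, minus strand) lies 5593 bases beyond Igfbp2, on the opposite strand. Igfbp5, which binds extracellular matrix, was at 70.7 FPKM in WT against 82.4 in KO, with a ratio of 1.17 (counting interval, 1.12 to 1.22). The 2 neighbours thus lay on opposite sides of 1, both between the limits.

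Igfbp7 was the second most abundant binding protein gene. It is a more distant member of the family, which binds IGFs weakly (NCBI gene 29817, chr5:77778265-77837070, minus strand). Its level was 442 FPKM in WT against 349.7 in β-arr1 KO, with a ratio of 0.792 (counting interval, 0.757 to 0.827). The row of Igfbp7 overlapped that of Polr2b by 89 bases. Polr2b, a subunit of RNA polymerase II, was at 21.5 and 22.7 FPKM, and the sum of both rows had a ratio of 0.804.

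Igfbp4 differed most between the libraries. Igfbp4, which mainly restrains IGF action until the protease PAPP-A cuts it (NCBI gene 16010, chr11:98902574-98913965, plus strand), was at 99.5 FPKM in WT against 32.4 in β-arr1 KO. The ratio was 0.326 (interval, 0.297 to 0.358) and the log2 ratio -1.62, from an estimated 1826 and 612 fragments. Its rank among the listed genes went from 586 in WT to 2277 in KO. Igfbp6, which prefers IGF2 to IGF1 (NCBI gene 16012, chr15:101974617-101979943, plus strand), was at 21.0 FPKM in WT against 9.09 in KO. The resulting ratio of 0.433 had an interval of 0.331 to 0.563, wider because 189 and 84 fragments lay behind it. The rank of Igfbp6 went from 3541 to 6803.

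Igfbp3 alone of the 10 genes was above 3/2. It encodes the main IGF carrier of blood (NCBI gene 16009, chr11:7106096-7113926, minus strand) and lies on the same chromosome as Igfbp4, far from it. Its level was 67.5 FPKM in WT against 120.1 in β-arr1 KO, with a ratio of 1.78 (counting interval, 1.67 to 1.90) from an estimated 1450 and 2653 fragments. Its rank went from 970 to 473. The bounds of Igfbp3, Igfbp4 and Igfbp6 were the same in both tables. Their ratios stayed past the limits in all 7 alternatives of scaling, pseudocount and summing of rows. They lay between 1.76 and 1.78 for Igfbp3, between 0.322 and 0.333 for Igfbp4, and between 0.428 and 0.459 for Igfbp6. The summing of rows could not move them, since none of these genes had a repeated or overlapping row. The rescalings and pseudocounts were too small to carry these ratios across a limit. With the shortest coding transcript in place of the longest, the intervals of Igfbp2, Igfbp3 and Igfbp7 still left out 1. Igfbp4, Igfbp5 and Igfbp6 have 1 coding transcript each, which is also the longest, so their intervals could not change.

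**Figure D3:**
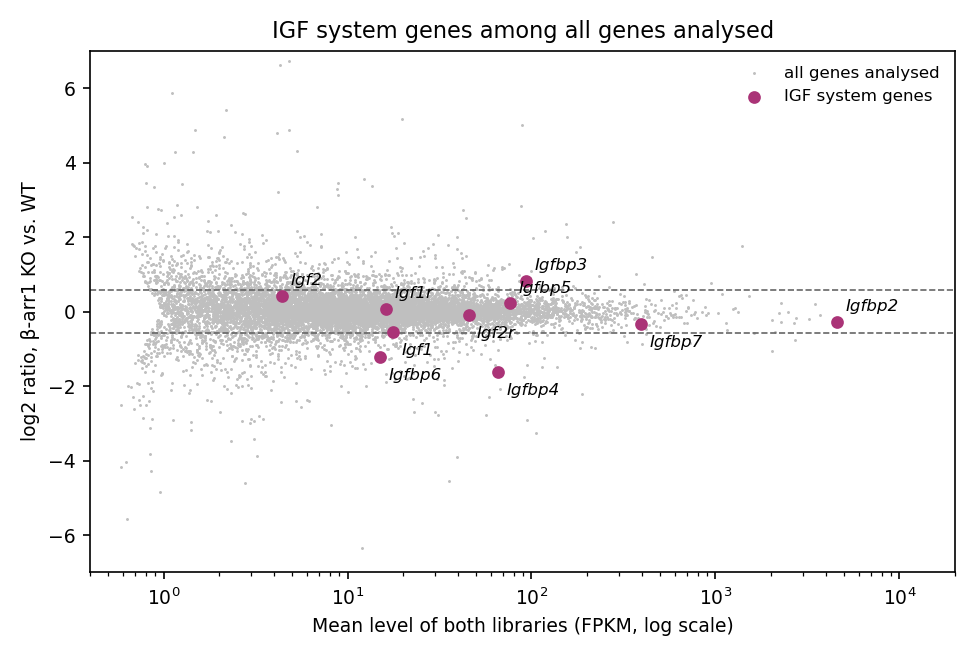
Log2 ratio, β-arr1 KO vs. WT, against the mean FPKM of both libraries (log axis) for the 12171 genes analysed in grey and the 10 IGF system genes in colour. Dashed lines are the limits 3/2 and 2/3. Igfbp4 and Igfbp6 lie below the lower line and Igfbp3 above the upper one, and Igfbp2 lies at the right end at a log2 ratio of -0.27.

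The order of the binding proteins by mRNA level differed between the genotypes. In WT it was Igfbp2, Igfbp7, Igfbp4, Igfbp5, Igfbp3 and Igfbp6. In β-arr1 KO, Igfbp3 stood in the place of Igfbp4 and Igfbp4 in that of Igfbp3, with the other 4 genes in the same places. In WT the levels of Igfbp5 (interval, 68.6 to 73.0 FPKM) and Igfbp3 (64.1 to 71.1 FPKM) overlapped, so these neighbours in the order could not be told apart even by counting error. The same held in WT for Igf1 (19.8 to 22.0 FPKM) and Igfbp6 (18.1 to 24.2 FPKM), which in KO stood at 14.4 and 9.09 FPKM. The level of Igfbp4 was 1.47 times that of Igfbp3 in WT and 0.270 times in KO.

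The total of the 6 binding protein genes was 5702 FPKM in WT against 4746 in β-arr1 KO, which gave a ratio of 0.832. Igfbp2 made up 87.7% and 87.5% of it, so the total moved with that gene. Without Igfbp2 the sum was 700.6 FPKM in WT against 594 in KO, which gave a ratio of 0.848. Within this rest, the share of Igfbp7 was 63.1% in WT and 58.9% in KO, and that of Igfbp5 was 10.1% and 13.9%. The share of Igfbp4 was 14.2% in WT and 5.46% in KO, whereas Igfbp3 held 9.64% in WT and 20.2% in KO. Igfbp6 held 3.0% and 1.53%. The binding protein mRNA was 232 times the ligand mRNA in WT and 245 times in KO, so this relation was nearly the same in both libraries while its components differed.

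**Figure D4:**
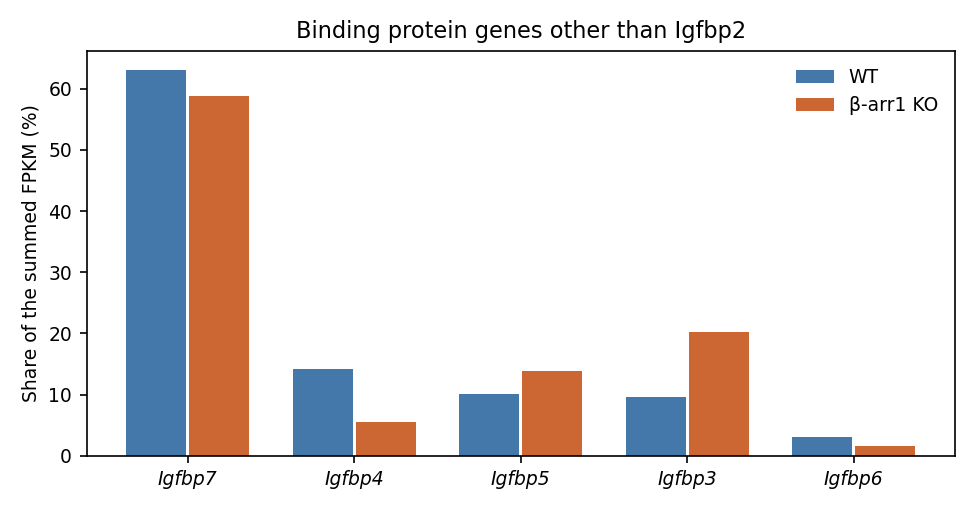
Shares of the summed binding protein FPKM without Igfbp2, in percent, in the WT and the β-arr1 KO library. Bars start at 0 and stand for single libraries. Igfbp7 has the largest share in both, Igfbp4 is at 14.2% in WT and 5.46% in KO, and Igfbp3 is at 9.64% and 20.2%.

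Markers of other cell types lay on the same side as some of these values. Of 8 fibroblast and leptomeningeal markers, 6 were analysed, 5 below 2/3 and 1 above 3/2, with a median log2 ratio of -1.23. Over all genes analysed, 6.74% were below 2/3 and 7.9% above 3/2. The summed level of all 8 markers was 615 FPKM in WT against 323 in β-arr1 KO. The ratios of Igfbp4 and Igfbp6 lay on the same side as those of the collagen genes Col1a1 (420 and 237 FPKM), Col1a2 (92.3 and 34.3 FPKM) and Col3a1 (88.3 and 43.3 FPKM), of Dcn (6.11 and 0.831 FPKM) and of Ptgds (4.30 and 1.60 FPKM). Pdgfra lay on the other side (3.12 and 6.03 FPKM), Lum was listed in WT at 0.660 FPKM and not in KO, and Slc6a13 was listed in KO alone at 0.0515 FPKM. Their part in the values of Igfbp4 and Igfbp6 was not tested. In bulk RNA, fewer cells of a type and less RNA per cell cannot be told apart.

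Of 12 microglial markers, 11 had a ratio below 1, beside 5711 of the 12171 genes analysed. Cd68 (185 and 119 FPKM) alone of these markers was below 2/3. The highest marker was Tyrobp at 317 and 219 FPKM. The median log2 ratio of the list was -0.38 and the ratio of their sums 0.753. The single markers ranged from 0.645 to 1.05, and the ratios of Igf1 (0.688), Igfbp7 (0.792) and Igfbp2 (0.830) lay within that range. So did those of most genes, and the part of microglia in the IGF values was not tested. Of 10 astrocyte markers, Aqp4, Slc1a2, S100b and Aldoc were above 3/2 and none was below 2/3, beside 7.9% and 6.74% of all genes analysed. The bounds of S100b and Aldoc differed between the libraries, and the row of S100b overlapped that of Dip2a (9.52 FPKM) in WT only. The median log2 ratio of the 10 markers was 0.34, although their sum was 396 FPKM in WT against 420 in KO. Choroid plexus epithelium is known as a source of IGF2 in the brain, and its marker Ttr was at 23.8 FPKM in WT against 0.290 in KO. Of the 3 choroid plexus markers analysed, out of 6, Ttr and Folr1 (53.1 and 13.6 FPKM) were below 2/3. Aqp1 (7.65 and 8.38 FPKM) lay between the limits. The row of Folr1 started at 108988502 (WT) or 109006845 (KO), so its values cover unlike stretches. The sum over all 6 markers was 85.4 and 22.9 FPKM. Igf2 itself had a ratio of 1.35, and the part of these cells in it was not tested.

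Endothelial, pericyte and oligodendrocyte lineage markers lay on both sides of 1, and all 3 neuronal markers analysed were above it. Over the 12171 genes analysed, 6459 ratios were above 1, 961 above 3/2 and 820 below 2/3. The sums given here are over all listed markers of a type, also those not analysed. Of 7 endothelial markers analysed, Pecam1 and Flt1 were above 3/2 and Cdh5 was below 2/3, with Esam highest (35.6 and 41.6 FPKM) and sums of 93.7 and 92.5 FPKM. Of 5 pericyte and smooth muscle markers, Rgs5 alone was below 2/3, and the sums of 5464 and 5160 FPKM came mostly from the contractile genes Tagln and Acta2, while Pdgfrb and Kcnj8 were not listed. Sox10 and Olig2 were above 3/2 among 5 oligodendrocyte lineage markers (sums, 46.8 and 57.1 FPKM), of which Cnp was the highest at 20.3 and 25.4 FPKM. Prox1 was above 3/2 among the neuronal markers (sums, 82.8 and 106 FPKM), of which Tubb3 was the highest at 44.7 and 59.8 FPKM. The part of these cells in the IGF values was not tested.

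Further genes of the IGF family were few. Of 10 listed for the comparison, 4 were analysed. Of these, none was below 2/3, beside 6.74% of all genes analysed, and 1 was above 3/2, beside 7.9%. It was Igfbpl1, an IGFBP-like gene, at 2.17 FPKM in WT against 6.03 in β-arr1 KO (ratio 2.78, interval 2.04 to 3.84). By the mean of both libraries the insulin receptor gene Insr was the highest of them, at 6.89 and 7.81 FPKM, a ratio of 1.13. In WT alone Igf2bp2 was higher, at 7.27 FPKM against 7.04 in KO. Igf1r mRNA was 2.30 times Insr mRNA in WT and 2.14 times in KO. Igfbp1, Ins1 and Insrr were not listed, and Igfals, which encodes the partner of IGFBP3 in blood, was listed in WT alone at 0.0540 FPKM. Ins2 was below 1 FPKM in both.

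Proteases that cut IGFBPs, and their inhibitors, were described next. Of 14 genes, 12 were analysed, 2 of them below 2/3 and none above 3/2, beside 6.74% and 7.9% of all genes analysed. The median log2 ratio of the list was -0.19. Of the 12 ratios, 10 were below 1, beside 5711 of the 12171 genes analysed. Pappa2, which cuts IGFBP3 and IGFBP5, was at 1.53 FPKM in WT against 0.206 in β-arr1 KO (ratio 0.135, interval 0.0774 to 0.222, from 127 and 18 fragments). Pappa, which encodes PAPP-A, the protease of IGFBP4, was at 9.63 and 6.44 FPKM, a ratio of 0.669 just inside the limit. Mmp2, a matrix metalloprotease, was at 137 and 50.9 FPKM (ratio 0.371), but its row ended at 95443178 (WT) or 95377319 (KO) and spanned a second gene, Capns2 (0.993 FPKM), in WT only. The lysosomal protease gene Ctsd was the highest of the list at 2955 and 2374 FPKM, a ratio of 0.803.

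Downstream of IGF1R, 25 of 27 adaptor and PI3K to mTOR genes were analysed, with a median log2 ratio of 0.05. Of these, 23 lay between the limits, beside 10390 of the 12171 genes analysed. The 23 included both main adaptors Irs1 (13.1 and 12.2 FPKM) and Irs2 (10.2 and 13.1 FPKM), and Akt1, the highest at 125 and 112 FPKM. The kinase gene Pdpk1 was at 33.4 FPKM in WT against 9.63 in β-arr1 KO, which gave a ratio of 0.289, with a row that started at 24184687 (WT) or 24210647 (KO). The S6 kinase gene Rps6kb1 was at 17.6 and 8.48 FPKM, with a ratio of 0.482 (counting interval, 0.430 to 0.541), with the same bounds in both. Rheb, the activator of mTOR, was listed in KO alone at 87.7 FPKM. Its locus lay within the WT row of Prkag2, which was at 97.1 FPKM in WT against 19.7 in KO. The sum over these rows was 97.1 FPKM in WT against 107 in KO, which gave a ratio of 1.11.

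Among 15 negative regulators of the pathway, 13 lay between the limits, beside 10390 of the 12171 genes analysed. Their median log2 ratio was -0.10. Grb10, an imprinted adaptor that restrains IGF1R and the insulin receptor, was at 61.5 FPKM in WT against 31.8 in β-arr1 KO (ratio 0.517, interval 0.485 to 0.550). Socs1 lay above 3/2 at 2.0 and 3.82 FPKM (ratio 1.91), with an interval of 1.09 to 3.46 from 20 and 39 fragments. The ubiquitin ligase gene Nedd4 was the highest at 262 and 238 FPKM. FoxO factors are transcription factors that AKT keeps out of the nucleus. Of 16 of their target genes, 15 lay between the limits, again beside 10390 of the 12171 genes analysed. The median log2 ratio of these targets was -0.05. The exception was Sod2, mitochondrial superoxide dismutase, at 12.9 and 45.02 FPKM (ratio 3.49, interval 3.14 to 3.88). The cell cycle inhibitor gene Cdkn1a was the highest of these targets at 386 and 344 FPKM.

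The imprinted neighbours of Igf2 and Igf2r included the highest ratio of all these lists. H19, a noncoding RNA expressed from the maternal allele while Igf2 is expressed from the paternal one, lies 72621 bases from the row of Igf2 on chromosome 7 (chr7:149761437-149764051). H19 was at 13.1 FPKM in WT against 74.998 in β-arr1 KO, with a ratio of 5.72 (counting interval, 5.02 to 6.54) from an estimated 265 and 1557 fragments. Igf2 lay on the same side of 1, between the limits. Of the 13 genes of this list, 4 were analysed. Airn (0.459, interval 0.218 to 0.916) was below 2/3, and Cdkn1c and Cd81, the highest at 661 and 603 FPKM, lay between the limits. Igf2as, Slc22a3 and Mas1 were not listed.

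**Figure D5:**
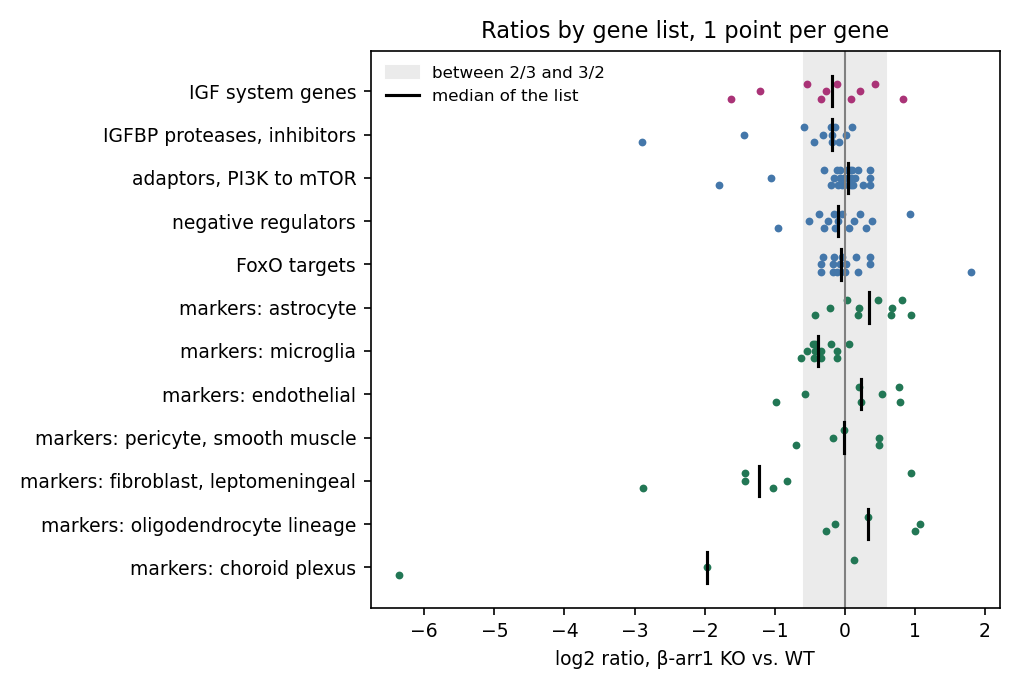
Log2 ratio, β-arr1 KO vs. WT, of the IGF system genes and of lists of pathway genes and cell type markers. Each point is a gene, black bars are medians and the grey band lies between the limits 2/3 and 3/2. The fibroblast and leptomeningeal markers have a median of -1.23, beside -0.19 for the IGF system genes.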

How the data were processed

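RNA of cultured DG astrocytes was sequenced by the authors as pooled cDNA, 1 library per genotype. Per their methods, read pairs were aligned to mm9 and expression was estimated with Cufflinks (version not given in the sources used here). The submitters' processing notes name TopHat 1.4.0. The authors deposited FPKM values, 1 per gene and library, already scaled for length and depth.

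Tables were joined by symbol, with the highest row where a symbol was repeated. Starts had 1 added, so that coordinates count from 1. Genes listed in both tables that reached 1 FPKM in either were analysed as FPKM ratios without a pseudocount. A gene listed in one table only got no ratio. Fragments were estimated from genes under 0.15 FPKM, of which 69.8% of 411 in WT and 71.0% of 428 in KO lay within 5% of the value of 1, 2 or 3 fragments, and from the longest GENCODE transcript less 170 bases. Intervals are exact Clopper-Pearson at 95%. They cover counting error only, and they take the same length in both libraries. The computation was tested on simulated data. The 10 genes and the gene lists were chosen with earlier results of these data known. Named were all 10 genes, every list gene past the limits, the gene with the highest mean FPKM of each list, and any gene overlapping the 10. Promoters came from RefSeq (GRCm38.p6), and all 10 genes matched by symbol. Alternatives rescaled the libraries, added pseudocounts of 0.1 and 1, changed the minimum or the limits, or summed rows. The tools were scipy 1.17.1, pandas 2.3.3 and numpy 2.4.6 under Python 3.11.15, and matplotlib 3.10.9 for figures.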

Additional observations from a re-analysis of the deposited data

How the results depend on the processing

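Igfbp3, Igfbp4 and Igfbp6 were the genes past the limits under every rescaling, pseudocount, minimum and summing of rows that was run, and the other 7 genes of the IGF system never were. Igfbp3, Igfbp4 and Igfbp6 lay above every minimum and had no further row to sum, so those alternatives could not change them. The rescalings and pseudocounts were too small to carry the ratios of these 3 genes across a limit. With limits of 2 and 1/2, 2 of the 10 genes were past them and Igfbp3 was not, beside 688 of the 12171 genes analysed. The count past 3/2 and 2/3 over all genes analysed, 1781 of 12171, was 1172 with a pseudocount of 1. It was 927 of 9145 with a minimum of 5 FPKM, and 1015 of 7338 among genes with the same locus bounds in both tables. Lower minimums brought in more genes, with 2826 past the limits at 0.1 FPKM and 2976 of 14448 with no minimum. Among 73 pathway genes analysed, 10 (13.7%) were past the limits, beside 14.6% of all genes, and 7 to 15 were under alternatives that also altered how many genes were analysed. The summed binding protein ratio of 0.832 lay between 0.822 and 0.848 under the alternatives. The counting interval left out 1 for 6 of the 10 genes with the shortest coding transcript. Of these, Igfbp4, Igfbp5 and Igfbp6 have the same transcript under both choices. Overlapping rows were summed as an alternative chosen after seeing the data. No paired analysis was possible because each genotype had 1 library, and no replicate could be left out. Igf2 and Igfbp6 rested on the fewest fragments.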

Other observations

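Other proteins with an IGF binding domain were looked up through the annotation term insulin-like growth factor binding, a list chosen after the data were seen. Apart from the genes already described as the IGF system, it held 13 genes, of which 11 were analysed. Of these, 1 was above 3/2 and 2 were below 2/3, beside 7.9% and 6.74% of all genes analysed. The median log2 ratio of the 11 was 0.13. The gene above 3/2 was Igfbpl1. Esm1, a proteoglycan gene of endothelial cells, was at 28.1 FPKM in WT against 13.3 in β-arr1 KO, with a ratio of 0.474 (counting interval, 0.406 to 0.552). Wisp1, a matricellular gene of the CCN family, was at 23.6 and 14.3 FPKM, with a ratio of 0.607 (counting interval, 0.551 to 0.668). Of its relatives, Wisp2 was at 32.0 and 41.1 FPKM, Nov at 19.5 and 24.1 FPKM, and Cyr61 at 453 and 558 FPKM, with ratios of 1.28, 1.24 and 1.23. Ctgf, the most abundant of the CCN genes here, was at 918 and 860 FPKM, a ratio of 0.936. All 4 lay between the limits.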
